A study of Bos taurus with 8 samples.

Results

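The ribosomal protein genes of the cytosolic ribosome were examined in 8 RNA sequencing libraries of bovine trophectoderm outgrowths. Members were chosen by symbol alone: RPL or RPS followed by a number, with or without an A, X, Y or L suffix, together with RPLP0, RPLP1, RPLP2 and RPSA. This gave 83 entries with 82 symbols among the 14970 genes of the table, 49 of the large subunit and 34 of the small subunit, and RPS29 had 2 entries. Trophectoderm is the outer cell layer of the embryo, from which the fetal part of the placenta develops. Outgrowths came from individual in vitro produced Bos taurus embryos that had hatched, were plated on collagen IV on day 10 and were kept in trophectoderm growth medium. They were collected on day 41 (libraries E to H, n = 4) or on day 35 (libraries A to D, n = 4), and every outgrowth had the same medium and substrate. The column headings give the day but not which embryo a library came from, so the letters follow column order only. The sex of the embryos and any batch are not given in the sources used here.

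Each ribosome holds 1 copy of nearly every ribosomal protein, on a core of ribosomal RNA, with the stalk proteins as the exception. The mRNAs of these proteins are among the most abundant in growing cells and start with a tract of pyrimidines through which mTOR signalling controls their translation. Surplus ribosomal proteins are degraded, and several of them have known roles away from the ribosome. In trophectoderm, which grows quickly and secretes hormones and proteins into the uterus, ribosomes carry a large synthetic load. Many ribosomal protein genes also have processed copies elsewhere in mammalian genomes, so reads of a gene and its copies may be split, and single values are uncertain to that extent.

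Between 119797973 and 158034430 reads were recovered per library of day 41, and between 106402848 and 144658052 per library of day 35. Values are RPKM, which divides reads by exon length and by a library size that the authors scaled. Library A of day 35 stood apart from the other 7 libraries in the members, so the comparison of the days is given with and without it for the members as a whole and for those the results turn on. All 10 trophectoderm markers examined were in the table and all but ELF5 passed the filter on low values, and the summed level of the 10 lay between 3052 and 3890.3 RPKM on day 41 and between 3850.4 and 4747 RPKM on day 35. Library B was highest in 2 other marker sums. The 9 markers of mesoderm and stroma summed to 247 RPKM in B, against 4.14 to 34.9 RPKM on day 41 and 17.6 to 30.7 RPKM in the other libraries of day 35. The 7 listed markers of hypoblast summed to 447 RPKM in B, against 15.5 to 147 RPKM on day 41 and 21.9 to 87.9 RPKM in A, C and D, with AFP and TTR at 0 in some library. The 3 immune and blood markers in the table summed to 231 to 289 RPKM on day 41 and 184 to 285 RPKM on day 35, with a median marker at 10.8 RPKM. The 4 granulosa markers summed to 2.32 to 3.73 and 2.17 to 5.09 RPKM. In bulk libraries, fewer cells of a type and less RNA per cell cannot be told apart. Each library is an outgrowth of an individual embryo, per the labels, and p-values measure the spread between these outgrowths.

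Of the 83 entries, 82 reached 0.5 RPKM in at least 4 libraries and were tested. The members were among the most abundant transcripts of the outgrowths. Set aside as lesser copies were 8 entries: RPL3L, RPL7L1, RPL22L1, RPL26L1, RPL36AL, RPS27L, RPS4Y1 and the shorter entry of RPS29. They were picked by name and not by level, and RPL36AL averaged 567 RPKM against 518 RPKM for RPL36A. In the other 75 members the mean RPKM over 8 libraries ran from 77.5 to 2184, with a median of 991 and a middle range of 618 to 1264. The median of all 12582 genes tested was 10.1 RPKM. A mean of at least 500 RPKM was reached by 64 members and of at least 1000 RPKM by 37, and 89 genes of the whole table reached 1000 RPKM. Small subunit members had a median of 1023 RPKM over 34 tested entries, and large subunit members had a median of 843 RPKM over 48.

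The highest level belonged to RPLP1 (ENSBTAG00000018320, chromosome 10, 16343826 to 16345977, plus strand, coordinates on ARS-UCD1.2 throughout), 1 of 3 acidic stalk proteins through which elongation factors are recruited. RPLP1 stood at 2111, 1864, 2111 and 2090.0 RPKM in libraries E to H of day 41, against 3701, 1949, 1960.5 and 1686 RPKM in libraries A to D of day 35. RPLP0 (ENSBTAG00000017389, chromosome 17, 62557757 to 62561808, minus strand), the base on which the stalk is built, stood at 1850.4, 1466, 1605 and 1630.5 RPKM in libraries E to H of day 41, against 2838, 1466, 1484 and 1245 RPKM in libraries A to D of day 35. RPLP2, the partner of RPLP1 in the stalk, was lower per length, with 591, 527, 632 and 531 RPKM in E to H and 1026, 558, 539 and 467 RPKM in A to D. In all 3 stalk genes library A was highest of the 8, and the other libraries of day 35 reached into or below the range of day 41. After RPLP1 the order of mean RPKM was RPL23A (1831), RPL37 (1817), RPS3 (1699), RPLP0 (1698), RPL23 (1663), RPS3A (1660.3) and RPS15 (1631). Whether neighbours in this order differ was not tested. RPL23A, which lies where the growing peptide leaves the ribosome, had 1967, 1412, 1957 and 1931 RPKM in E to H and 2513, 1693, 1635 and 1541 RPKM in A to D, and library F was the low one of day 41.

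At the other end, the lowest gene that is not a lesser copy was RPL19 (ENSBTAG00000002060, chromosome 19, 39693965 to 39697803, plus strand), a large subunit protein that reaches across to the small subunit. RPL19 stood at 72.1, 68.6, 70.7 and 69.2 RPKM in libraries E to H of day 41, against 150.0, 65.8, 66.8 and 56.7 RPKM in libraries A to D of day 35. It averaged 70.1 ± 1.56 RPKM on day 41 and 84.8 ± 43.7 RPKM on day 35 (SD, n = 4 each), and library A alone was far from the rest. RPL22 (165 RPKM), RPL34 (239 RPKM) and RPL15 (291 RPKM) came next. RPL3L, the copy of RPL3 used in striated muscle, reached only 0.121 to 0.187 RPKM on day 41 and 0.0981 to 0.299 RPKM on day 35, under the filter, while RPL3 averaged 845 RPKM. The 2 entries of RPS29 differed widely. The one with 1086 bases of exon in 3 blocks (ENSBTAG00000052337, chromosome 10, 42627501 to 42629504, minus strand) had 366, 321, 335 and 352 RPKM in E to H and 631, 322, 339 and 270.5 RPKM in A to D. The one with 171 bases in 1 block (ENSBTAG00000025666, chromosome 10, 26779223 to 26779393) had 1.31 to 1.96 RPKM on day 41 and 0.951 to 2.35 RPKM on day 35, from 280 reads over the 8 libraries, so counting error limits its values.

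Members with longer annotated exons had lower RPKM. Exon length in the table ran from 171 to 3202 bases over the 83 entries, with a median of 853, against a median of 2329.5 for all genes tested. Across the 83 entries the Spearman coefficient of exon length with mean RPKM was -0.44, and in single libraries it ran from -0.47 to -0.42. It was -0.57 across the 75 members that are not lesser copies, and -0.05 across all genes tested. The matching Pearson coefficients of log2 exon length with log2(RPKM + 1) were -0.13, -0.52 and -0.04. Reads, before division by length, went the other way, with a Spearman coefficient of 0.36 across the 83 entries and 0.36 across all genes tested. These coefficients are across genes of the same libraries, which share depth and annotation, and they carry no test.

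**Figure D1:**
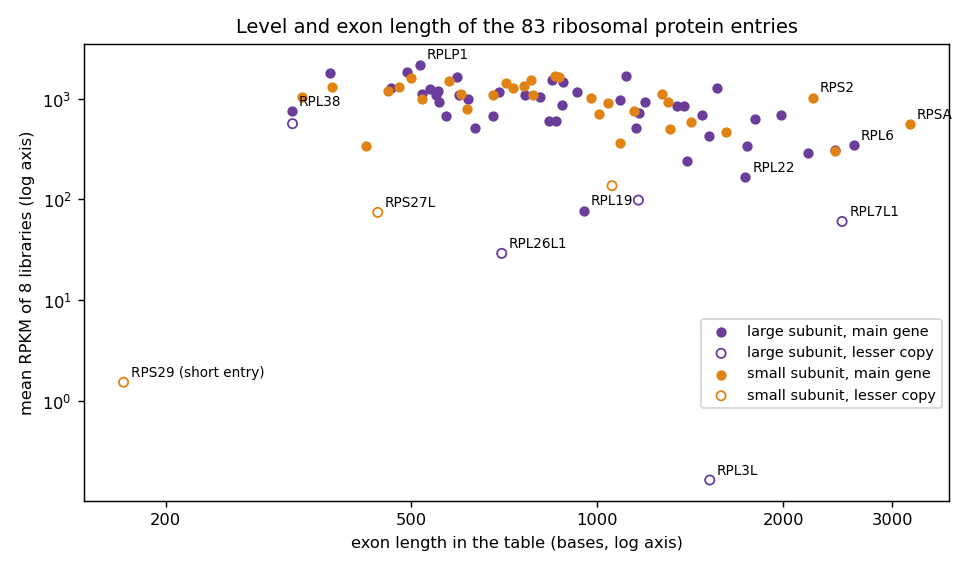
Mean RPKM over 8 libraries against exon length in bases for the 83 ribosomal protein entries, both on log axes, 1 point per entry, with filled points for main genes and open points for lesser copies. Main genes run from 77.5 RPKM (RPL19) to 2184 RPKM (RPLP1), and those with longer exons lie lower.

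The longest and shortest members show the extent of this. RPSA (ENSBTAG00000009757, chromosome 22, 12684159 to 12710177, plus strand), a small subunit protein also known as a laminin receptor precursor, has 3202 bases of exon. RPSA stood at 565, 467, 517 and 521 RPKM in libraries E to H of day 41, against 922, 507, 539 and 427 RPKM in libraries A to D of day 35. The next longest were RPL6 (2598 bases, 347 RPKM), RPL7L1 (2489 bases, 60.4 RPKM), RPL27A (2428 bases, 308 RPKM) and RPS14 (2421 bases, 306 RPKM). RPS2, with 2230 bases, was an exception at 1029.6 RPKM. Among the shortest, RPL38 (320 bases), which in mouse embryos is needed for the translation of certain Hox mRNAs, had 722, 658, 713 and 700.05 RPKM in E to H and 1243, 677, 683 and 639 RPKM in A to D. RPS28 (332 bases) averaged 1053 RPKM and RPL37 (369 bases) 1817 RPKM. A table length that counts exons little used in these cells lowers RPKM by construction, and whether that holds for any member was not tested.

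The members moved together from library to library, and library A was the widest of these moves. They took 6.49%, 6.01%, 6.16% and 6.26% of the reads in libraries E to H of day 41, against 9.28%, 5.67%, 5.72% and 5.13% in libraries A to D of day 35. Library A thus held 1.54 times the median share of the other 7, and 1.54 and 1.56 times when mitochondrial genes or the 20 most abundant other genes were left out. Large and small subunit members shared the shift, since their reads stood in a ratio of 1.29, 1.30, 1.32 and 1.30 in E to H and of 1.26, 1.27, 1.29 and 1.28 in A to D. Mitochondrially encoded genes took 4.67% to 5.55% of reads on day 41 and 4.03% to 4.72% on day 35, with 4.54% in A.

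Gene by gene, library A was the highest of the 8 libraries in all 82 members tested and in RPL3L, while it was highest in 31.2% of all genes tested (3926 of 12582). Library D was the lowest in 74 of 82, against 14.7% of all genes tested. The deviation of a gene in a library was taken as its log2(RPKM + 1) minus its median over the 8 libraries. The members' median deviation was 0.11, -0.05, 0.03 and 0.05 in E to H, and 0.81, -0.10, -0.08 and -0.28 in A to D. For all genes tested that median lay between -0.01 and 0.01 in every library. In the 75 main genes, library A stood at 1.33 (RPL4) to 2.52 (RPL12) times the median of the other 7 libraries, with a median of 1.81. The median was 1.81 for large subunit members and 1.80 for small subunit members. The authors' scaled library size, by which RPKM divides, was 0.90 times the recovered reads in A. It was 1.00 to 1.04 times in the other 7 libraries, which raises A in RPKM relative to its share of reads.

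**Figure D2:**
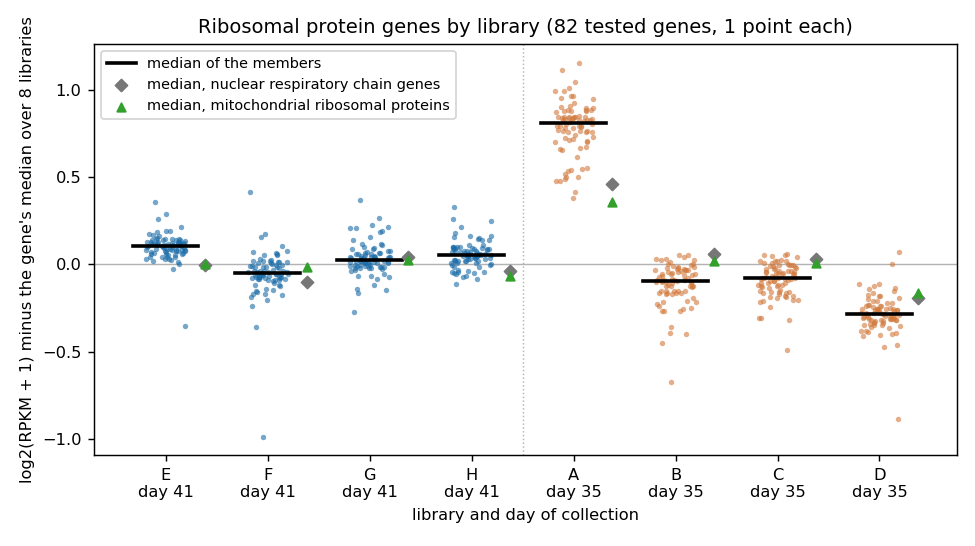
Deviation of each tested ribosomal protein gene from its own median over 8 libraries (log2, 1 point per gene), by library, with day 41 (E to H) on the left and day 35 (A to D) on the right. Black lines are the members' medians, 0.81 in library A and -0.28 in library D, and the grey and green symbols are medians of the nuclear respiratory chain genes and the mitochondrial ribosomal proteins.

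Little was left once the common shift of a library was taken off. The members' SD over the 8 libraries had a median of 0.33 on the log2 scale, or 0.14 without A, against 0.22 and 0.17 for all genes tested. After subtraction of the members' median deviation in each library, the median SD was 0.075, and it was under 0.1 in 60 of 82 members. A share of this is by construction, because the median comes from the same members. The SD after subtraction stayed over 0.2 in 4 members, RPL12, RPS27L, RPL22L1 and RPS4X.

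The deviation in library A was about the same in short and long members, while other genes with longer exons had lower values. Across all genes tested the Spearman coefficient of exon length with the deviation of library A was -0.40, and across the 83 entries it was -0.14. For library D the coefficients were 0.32 and -0.10. Members with up to 1000 bases of exon had a median deviation of 0.81 in A (n = 49), and members over 1000 bases had 0.82 (n = 33). Other genes above 100 RPKM had 0.54 up to 1000 bases (n = 153) and 0.21 above (n = 521). The classes above 1000 bases differ in length. Of the 33 members there, 19 had up to 1500 bases, and other genes above 100 RPKM of that length had 0.43 (n = 138). Of the 153 short abundant other genes, 23 (15.03%) exceeded the members' median, and 88 deviated by over 0.5, against 77 of 82 members. The members' own levels were higher than those of these genes, with a median of 1096 RPKM up to 1000 bases against 187 RPKM, so length and level together were not matched.

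**Figure D3:**
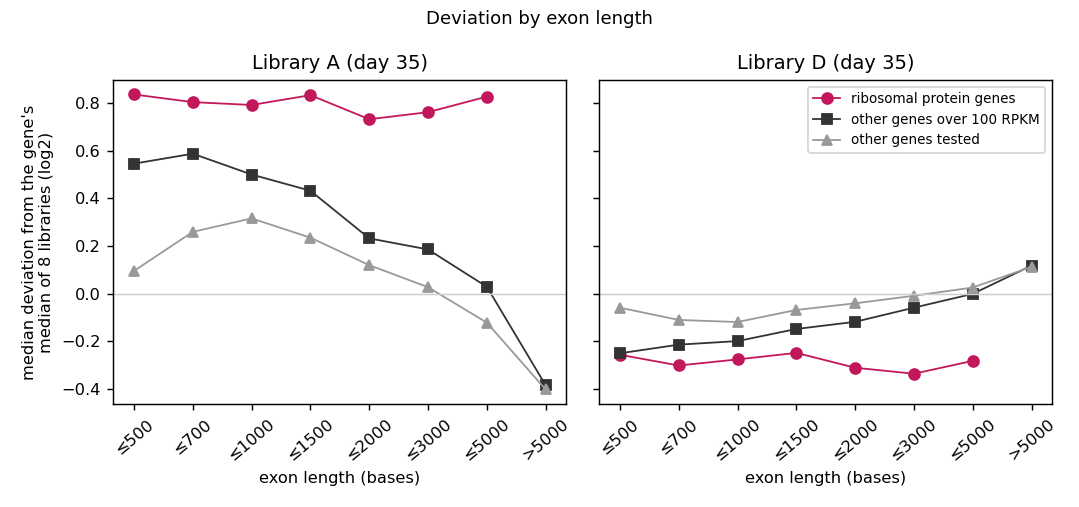
Median deviation from the gene's median of 8 libraries (log2) by exon length class in bases, for library A (left) and library D (right), both of day 35. Ribosomal protein genes lie between 0.73 and 0.84 in every length class in A, while other genes fall with length beyond 1000 bases, to -0.40 above 5000 bases.

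Genes with related work shared the shift of library A in part. FAU encodes a ribosomal protein fused to a ubiquitin-like sequence, and RACK1 a scaffold on the small subunit. FAU had 493, 452, 509 and 476 RPKM in E to H and 942, 569.8, 554 and 448 RPKM in A to D. RACK1 had 858, 715, 828 and 811 RPKM in E to H and 1327, 615, 674 and 586 RPKM in A to D. Library A was highest in both genes. Of 14 translation factors and other genes whose mRNAs carry the pyrimidine tract, such as EIF4B and EIF3E, A was highest in 13, with a median deviation of 0.43. Of 75 mitochondrial ribosomal proteins A was highest in 63 (median 0.36), and of 76 nuclear respiratory chain genes in 63 (median 0.46). Of 39 ribosome assembly genes A was highest in 27 (median 0.30), and of 11 genes of RNA polymerase I, which makes ribosomal RNA, in 4 (median 0.07). The 16 genes of mTOR signalling and its control of these mRNAs had a median of -0.10. In the 10 proliferation genes A was the lowest library in 9, with a median of -0.57. Among all 12582 genes tested, A was lowest in 3678 and highest in 3926. Marker genes of trophectoderm had a median of -0.01 in A. The lists were not tested against one another, and they differ in exon length. Median length was 1258 bases in the mitochondrial ribosomal proteins and 1047.5 in the respiratory chain genes. Other genes of 1000 to 1500 bases had a median of 0.23 in A, or 0.43 above 100 RPKM. Median length was 2170 bases in the pyrimidine-tract genes, 2489 in assembly, 2756 in polymerase I, 2472 in mTOR and 2440 in proliferation genes. Other genes of 2000 to 3000 bases had 0.03, or 0.19 above 100 RPKM. The part of exon length, RNA quality, cell makeup or library preparation in the shift of A was not tested.

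RPL12 left the common pattern most. RPL12 (ENSBTAG00000006963, chromosome 11, 98179658 to 98183783, minus strand), which sits at the foot of the stalk, stood at 786, 1340.0, 1142 and 1138 RPKM in libraries E to H of day 41, against 2239, 629, 887 and 544 RPKM in libraries A to D of day 35. The values of day 41 and day 35 overlapped, with E low on day 41 and A high on day 35. Its coefficient of variation of 49.5% was the largest of the members, and without A it was 31.8%. RPS27L, a copy of RPS27 that p53 induces in human cells, stood at 75.2, 37.4, 82.98 and 71.9 RPKM in libraries E to H of day 41, against 107, 75.2, 76.4 and 68.2 RPKM in libraries A to D of day 35. Library F was low and the others overlapped between the days. RPL22L1, which RPL22 represses in mouse cells, had 92.5, 84.5, 78.1 and 112 RPKM in E to H and 138, 96.3, 86.5 and 99.2 RPKM in A to D. RPL4, which lines the tunnel for the new peptide, varied least, with a coefficient of variation of 13.3%. RPL4 had 1326, 1174, 1132 and 1292 RPKM in E to H and 1651, 1242, 1309.8 and 1118 RPKM in A to D, so that A was still highest. RPL32 had 1232, 1259, 1009 and 1402 RPKM in E to H and 2297, 925, 941 and 919 RPKM in A to D. In that gene B, C and D averaged 928 ± 11.3 RPKM (SD, n = 3), and all 4 libraries of day 41 lay above them and below A.

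The days were then compared, a comparison that asks which genes differ after 6 more days in culture. No member passed the test between day 41 and day 35 with all 8 libraries (limma-trend on log2(RPKM + 1), adjusted p under 0.05 over 12582 genes). The background was low, since 0.0477% of all genes passed. No member reached an unadjusted p under 0.05 either, against 11.7% of all genes, and the 2 days did not separate in any member, against 8.20% of genes. Library A of day 35 was the highest in all 82 members and D of the same day the lowest in 74, so the days could not separate in these 74. A also widened the spread, as in RPS4X, with an SE of 0.31 and of 0.07 without A. The counts of 0 thus do not show that the members were steady between the days. The log2 fold change was positive in 24 of 82 members, with a median of -0.03, beside 52.6% of all genes and a median of 0.01. The lowest adjusted p belonged to RPS27L (log2 fold change -0.32, SE 0.25, limma-trend adjusted p = 0.665). With all libraries the log2 fold change was 0.25 in RPL12, 0.23 in RPL10, 0.21 in RPL39 and 0.15 in RPL5, and it was -0.18 in RPL22L1 and -0.10 in RPL4. Limma-voom on the recovered reads called no member and 0.0159% of all genes. In the authors' deposited table, no member had an FDR under 0.05 (1.76% of all genes did), the lowest was 0.447 (RPL12), and the log2 fold change was positive in 59 of 83 entries with a median of 0.08, a positive value meaning higher on day 41. In that table RPS4X had a log2 fold change of 0.39, although its mean was 934 ± 37.6 RPKM on day 41 and 929.6 ± 554 RPKM on day 35 (SD, n = 4 each), and the reason was not tested.

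Without library A the members' difference turned positive. The upward move is by construction, because A was the highest library in all 82 members, against 31.2% of all genes tested. Leaving it out thus raised the log2 fold change of every member, and A was set apart on these same values. Without A the log2 fold change was above 0 in 80 of 82 members, with a median of 0.20, against 52.2% of all genes and a median of 0.01. All 4 libraries of day 41 exceeded B, C and D in 41 members, against 11.3% of all genes. An unadjusted p under 0.05 with a higher level on day 41 was reached by 37 members, against 11.1% of all genes, and no member reached it in the other direction. After adjustment 1 member passed, RPS4X, against 0.199% of all genes that were called higher. With libraries A and D both left out, no member passed, and the median log2 fold change was 0.14. Weights estimated for each library gave A 0.13 in 2 fits. With array weights 4 members passed, RPS4X, RPL39, RPL6 and RPL10, against 4.71% of all genes called higher, and with quality weights in limma-voom none did, against 5.14% of all genes called in either direction. The members share these libraries, so their number is not a count of independent results.

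**Figure D4:**
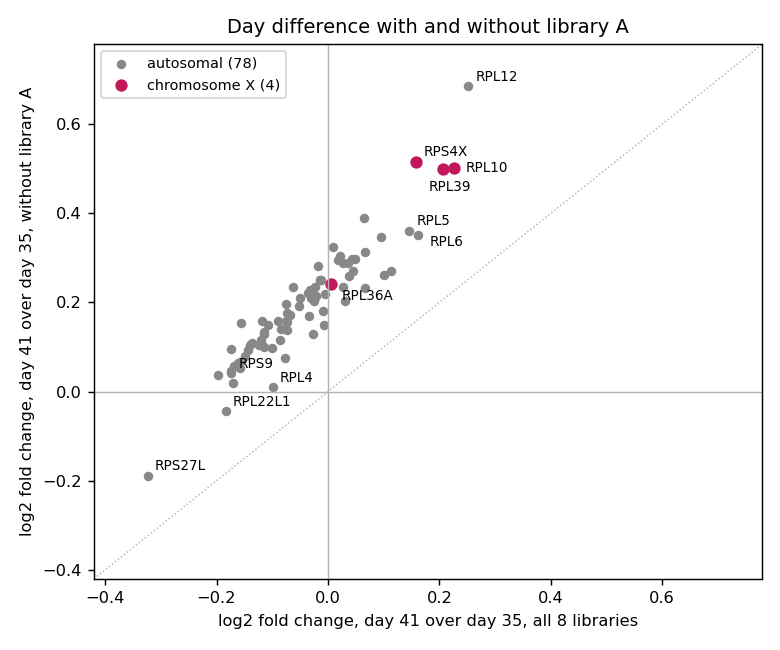
Log2 fold change of day 41 over day 35 for the 82 tested members, with all 8 libraries on the x axis and without library A on the y axis, the 4 members on chromosome X in red. The dotted line marks equal values. All members lie above it by construction, because library A of day 35 was the highest library in each of them. On the x axis 24 members are above 0, against 80 on the y axis.

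The largest differences without A were in RPL12 (log2 fold change 0.69, SE 0.22, limma-trend adjusted p = 0.16) and in 3 members on chromosome X, a grouping chosen after the values were seen. RPS4X (ENSBTAG00000018800, chromosome X, 78400215 to 78405064, plus strand), a small subunit protein, stood at 954, 893, 913 and 975 RPKM in libraries E to H of day 41, against 1761, 661, 642 and 654 RPKM in libraries A to D of day 35. All libraries of day 41 lay above B, C and D and far below A. With all libraries its difference did not pass (log2 fold change 0.16, SE 0.31, limma-trend adjusted p = 0.883), and without A it was higher on day 41 (log2 fold change 0.52, SE 0.07, limma-trend adjusted p = 0.0441). RPL10 (ENSBTAG00000007454, chromosome X, 37450195 to 37453599, plus strand), which joins the large subunit late in its maturation, had 957, 745, 1014 and 824 RPKM in E to H and 1327, 595, 679 and 591 RPKM in A to D. RPL39 (ENSBTAG00000049833, chromosome X, 4150048 to 4153937, minus strand), a small protein of the peptide tunnel, had 676, 547, 676 and 621 RPKM in E to H and 1002, 442, 471 and 419.8 RPKM in A to D. In RPL10 and RPL39 all libraries of day 41 again lay between A and the other 3 libraries of day 35. Without A neither passed, RPL10 with a log2 fold change of 0.50 (limma-trend adjusted p = 0.106) and RPL39 with 0.50 (limma-trend adjusted p = 0.072). RPL36A (ENSBTAG00000019253, chromosome X, 50819017 to 50835992, minus strand), which lies at the exit site for transfer RNA, had 505, 423, 572 and 534 RPKM in E to H and 826, 424, 449.8 and 408 RPKM in A to D, and here F lay among B, C and D. Its log2 fold change was 0.01 with all libraries and 0.24 without A.

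The 4 members on chromosome X had a median log2 fold change of 0.18, and of 0.50 without A, while the 78 tested autosomal members had -0.04, and 0.19 without A. After the members' common shift was taken off, the X members' median deviation was 0.04, -0.03, 0.21 and 0.05 in E to H, and -0.03, -0.30, -0.18 and -0.15 in A to D. Library A stood with day 41 and not with B, C and D in this measure. The other 410 tested genes on chromosome X had a median log2 fold change of 0.07, and of 0.10 without A, with 64.1% and 66.3% positive. For the 12090 other genes not on X the medians were 0.01 and 0.01, with 52.4% and 51.5% positive. No test was made of X against autosomes, and the part of the embryos' sex was not tested.

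**Figure D5:**
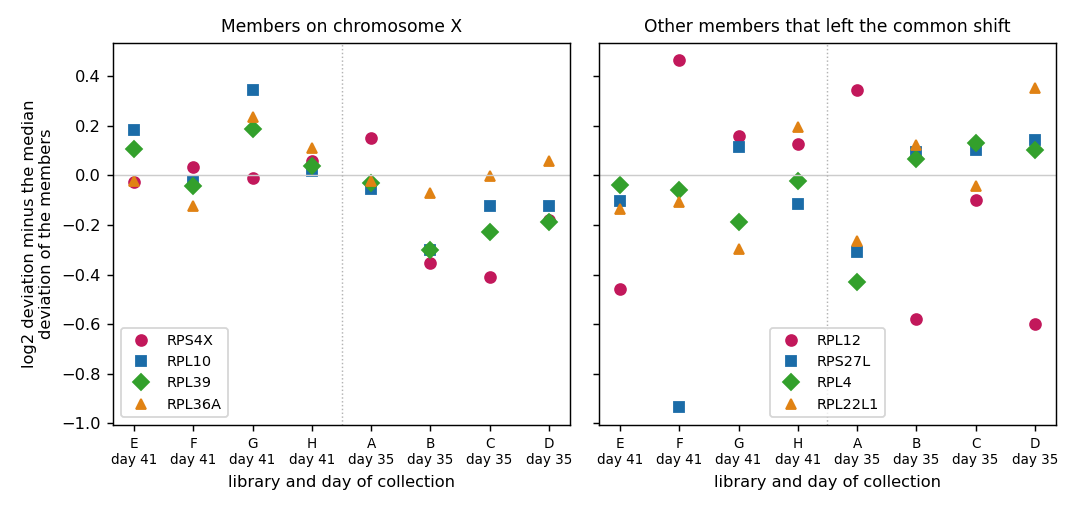
Deviation of single members after subtraction of the members' median deviation in the same library (log2), by library, day 41 (E to H) left of day 35 (A to D), for the 4 members on chromosome X and for RPL12, RPS27L, RPL4 and RPL22L1. RPS4X, RPL10 and RPL39 lie below 0 in B, C and D, and RPS27L is at -0.94 in F.

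RPL5 (ENSBTAG00000002026, chromosome 3, 50629956 to 50639054, minus strand) and RPL11 enter the large subunit as a complex with a small ribosomal RNA and, when free, bind the p53 regulator MDM2 in human cells. RPL5 stood at 755, 649, 739 and 737 RPKM in libraries E to H of day 41, against 1016, 539, 611 and 532 RPKM in libraries A to D of day 35. RPL11 had 449, 400.0, 411 and 430.3 RPKM in E to H and 674, 370.4, 386 and 334 RPKM in A to D. Without A the log2 fold change of RPL5 was 0.36 (SE 0.09, limma-trend adjusted p = 0.104), with all 4 libraries of day 41 above B, C and D. RPL6, which passed with array weights, had 371, 358, 325 and 395 RPKM in E to H and 479, 289, 294 and 267 RPKM in A to D. Its log2 fold change was 0.16 with all libraries, 0.35 without A (limma-trend adjusted p = 0.101) and 0.34 with array weights (limma-trend adjusted p = 0.043). RPS6, the ribosomal substrate of the S6 kinases below mTOR, averaged 738 ± 38.2 RPKM on day 41 and 793 ± 190.1 RPKM on day 35 (SD, n = 4 each). Its libraries had 779, 714, 698 and 761 RPKM in E to H and 1069, 737, 732 and 634 RPKM in A to D. RPS19, mutated in human Diamond-Blackfan anaemia, had 609, 496, 588 and 588 RPKM in E to H and 928, 531, 543 and 478 RPKM in A to D. RPS9, a protein near the mRNA entry of the small subunit, was nearly level in 7 libraries, with 478, 469.9, 458 and 460.3 RPKM in E to H and 824, 482, 449 and 429.9 RPKM in A to D. Its coefficient of variation was 25.6%, and 3.91% without A. The log2 fold change of RPS9 was -0.17 with all libraries and 0.04 without A.

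Lesser copies were set against their main genes as a ratio of RPKM within each library, which takes off a shift that both share. No pair of 6 passed the test between the days (two-sided exact permutation test over 70 assignments, smallest possible p = 0.0286, adjusted over 6 pairs). RPL22L1 stood at 55.7% ± 7.18 of its main gene RPL22 on day 41 and 65.7% ± 11.9 on day 35 (SD, n = 4 each, exact p = 0.2, adjusted p = 0.457), and without A the day 35 mean was 69.6% (exact p = 0.114). RPL26L1 stood at 2.43% ± 0.173 of RPL26 on day 41 and 2.79% ± 0.109 on day 35 (exact p = 0.0571, adjusted p = 0.343), and without A the day 35 mean was 2.75% (exact p = 0.0857). RPL26L1 itself had 29.3, 24.4, 27.6 and 25.6 RPKM in E to H and 48.7, 27.4, 27.0 and 22.6 RPKM in A to D. RPL36AL, with 1 exon block on chromosome 10, was about as abundant per length as RPL36A, at 110% ± 3.46 and 113% ± 13.5 of it on day 41 and day 35 (exact p = 0.686). Without A the day 35 mean was 119% (exact p = 0.0857), and the log2 difference between the days was -0.11 in place of -0.03. RPL36AL had 564, 480.0, 616 and 566 RPKM in E to H and 783, 541, 520.2 and 462 RPKM in A to D. RPL7L1 stood at 6.26% ± 0.292 of RPL7 on day 41 and 6.05% ± 0.215 on day 35 (exact p = 0.229), and without A the day 35 mean was 6.08% (exact p = 0.4). RPL7L1 itself had 62.3, 58.1, 61.6 and 66.7 RPKM in E to H and 79.9, 55.9, 51.8 and 46.7 RPKM in A to D. RPS27L stood at 5.43% ± 1.27 of RPS27 on day 41 and 6.23% ± 1.13 on day 35 (exact p = 0.457), with 3.66% in library F. Without A the day 35 mean was 6.78% (exact p = 0.143), and the log2 difference between the days was -0.35 in place of -0.21.

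The last pair is RPS4Y1 over RPS4X. RPS4Y1, on the Y chromosome in humans, lies on chromosome 23 in this table (ENSBTAG00000025617, chromosome 23, 10550062 to 10565808, minus strand), with 2 exon blocks. RPS4Y1 stood at 137, 133, 135 and 143 RPKM in libraries E to H of day 41, against 192, 116, 119 and 122 RPKM in libraries A to D of day 35. As a percentage of the RPKM of RPS4X it came to 14.3%, 14.8%, 14.8% and 14.7% in E to H, against 10.9%, 17.5%, 18.5% and 18.6% in A to D. The 4 ratios of day 41 lay together, A was below them and B, C and D above. The mean ratio was 14.7% ± 0.236 on day 41 and 16.4% ± 3.69 on day 35 (exact p = 0.657), and without A it was 18.2% on day 35, with an exact p of 0.0286, the smallest that 3 against 4 allows. Exact p-values without A are not adjusted over the 6 pairs. A was set apart on the values of these same genes, so this p does not establish a difference between the days.

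No gene of the related groups reported here passed the test between the days either. The log2 fold changes were -0.33 for FAU and 0.09 for RACK1, and without A they were -0.11 and 0.36. The 14 pyrimidine-tract genes of translation had a median of -0.03, and of 0.13 without A with 11 of 14 positive. The 75 mitochondrial ribosomal proteins had a median of -0.09, and of 0.02 without A with 40 positive. The 76 nuclear respiratory chain genes had -0.12, and 0.00093 without A with 39 positive. Ribosome assembly genes had a median of -0.04 (12 of 39 positive), and of -0.0046 without A (19 of 39). The 11 genes of RNA polymerase I, the 16 of mTOR signalling and the 10 of proliferation had medians of -0.07, 0.0067 and 0.14, and of -0.0038, -0.03 and -0.0064 without A. Among the assembly genes DKC1, which modifies ribosomal RNA, had 56.4, 61.7, 62.8 and 51.9 RPKM in E to H and 50.8, 45.7, 47.8 and 45.01 RPKM in A to D, and its days did not overlap. FBL, the methyltransferase of ribosomal RNA, had 76.4, 79.8, 81.8 and 85.4 RPKM in E to H and 114, 97.4, 101 and 84.5 RPKM in A to D. Neither passed (limma-trend adjusted p = 0.281 for DKC1 and 0.342 for FBL, and 0.107 and 0.197 without A). MYC, a driver of ribosome synthesis, averaged 11.5 ± 1.52 RPKM on day 41 and 20.5 ± 8.58 RPKM on day 35 (SD, n = 4 each), with 33.1 RPKM in A (limma-trend adjusted p = 0.32, and 0.12 without A).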

How the data were processed

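RNA was measured in 8 libraries, 4 per day, from Trizol extracts of total RNA, per the labels. FastQC, HISAT2, featureCounts, edgeR and the build ARS-UCD1.2 are listed in the submitters' processing notes with no version. Per library the authors deposited RPKM, and per gene the exon length, coordinates and their own comparison of the days as log2 fold changes, p-values and FDR. Reads were recovered because RPKM multiplied by exon length came in equal steps within a library (100% of values within 0.01 of a whole step). Reads are PCR products without molecular identifiers.

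The days were compared by limma-trend (limma 3.58.1, R 4.3.3; summaries in Python 3.11.15) on log2(RPKM + 1), with all 8 libraries and no covariate, over 12582 genes reaching 0.5 RPKM in at least 4 libraries. P-values are two-sided and adjusted by Benjamini and Hochberg over all of these genes, with a threshold of 0.05. Fold changes on this scale understate those of low genes. The fit was tested on simulated data in which no library stood apart as A did, so that test does not show how the fit handles such a library. Paralog ratios had an exact permutation test. Shares, exon length and lists were described without a test.

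Named members were those with the highest and lowest levels, the smallest p in each direction, the longest and shortest exons, the largest and smallest coefficient of variation, the paralog pairs and 8 members of known role, and from other lists the genes with the smallest p. Some were left out for length. RPL32 and RPS9 are named by this rule, and the grouping by chromosome X is not. Members and lists were chosen with earlier results of these data known. All 82 symbols matched RefSeq. RPL31 and RPL10L were not analysed here. Alternatives covered pseudocounts, filters, scaling, limma-voom, library weights and leaving out libraries.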

Additional observations from a re-analysis of the deposited data

Results flagged for a closer look

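In groups of 4 libraries, a library was singled out where its gap to the nearest other library, divided by the range of the group, exceeded Dixon's critical value. Of 68 such groups, 22 were singled out, and chance gives about 1 in 20. Members share the library, so these are not separate events. Library A of day 35 accounts for 19 of them and library F of day 41 for 3. The rule was not applied to every member, so the genes listed below are not all those in which A stood apart. RPS3A, which was not screened, had 2641 RPKM in A against 1379, 1282 and 1283 RPKM in B, C and D of day 35.

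The share of reads in the members was 9.28% in library A, far from the other 3 libraries of day 35. The level in A stood apart in the stalk genes RPLP1 (3701 RPKM), RPLP0 (2838 RPKM) and RPLP2 (1026 RPKM). It also did so in RPL23A (2513 RPKM), RPL32 (2297 RPKM), RPL38 (1243 RPKM), RPL5 (1016 RPKM), RPL11 (674 RPKM), RPL6 (479 RPKM) and RPL19 (150.0 RPKM). In the small subunit it did so in RPS4X (1761 RPKM), RPS19 (928 RPKM), RPS9 (824 RPKM) and RPS4Y1 (192 RPKM). The members on chromosome X other than RPS4X stood apart in A as well, with 1327 RPKM in RPL10, 1002 RPKM in RPL39 and 826 RPKM in RPL36A. The ratio of RPS4Y1 to RPS4X was low in A, at 10.9%.

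On day 41, library F was the low library in RPLP1 (1864 RPKM), RPL23A (1412 RPKM) and RPL5 (649 RPKM). RPL12 and RPS27L, which left the common shift, were not singled out in this way within either day.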

How the results depend on the processing

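The count of members called was 0 in each direction with all 8 libraries, and 0 under every pseudocount, filter, scaling and limma-voom fit tried. Array weights called 4 members higher, and leaving out A with library totals, or with median-of-ratios factors from other genes, called 1 (RPS4X) each time. The last 2 settings and leaving out A and D together were chosen after seeing the data. Leaving out 1 library in turn gave 0 to 1 called higher and 0 called lower. The members' median log2 fold change was -0.03, ran from -0.17 (without D) to 0.20 (without A) over the libraries left out, and was 0.17 with array weights and 0.17 with quality weights. Without the lesser copies the Spearman coefficient of exon length with RPKM was -0.57 in place of -0.44. The cause of these changes was not tested, other than the library left out or weighted down.

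The log2 fold change of RPS9 turned positive with quality weights (0.024), array weights (0.030), without A and D (0.0036), without A (0.042), and without A under library totals (0.021) or median-of-ratios factors (0.041). That of RPL4 turned positive with quality weights (0.011), array weights (0.017), without A (0.0097) and without A under median-of-ratios factors (0.0092). RPL22L1 turned with array weights (0.0038) and RPL36A with limma-voom (-0.00046). Over single libraries left out, the values ran from -0.27 to 0.042 in RPS9, from -0.18 to 0.0097 in RPL4 and from -0.10 to 0.24 in RPL36A. They ran from -0.45 to -0.07 in RPS27L, from -0.28 to -0.04 in RPL22L1, from 0.07 to 0.35 in RPL6, from 0.11 to 0.50 in RPL10 and from 0.08 to 0.50 in RPL39. In RPS4X they ran from 0.03 to 0.52, in RPL12 from 0.0057 to 0.69 and in RPL5 from 0.05 to 0.36. The log2 ratio of RPL36AL to RPL36A ran from -0.11 to 0.029 (without B), and the other 5 ratios kept their sign. The ratio of RPL26L1 to RPL26 had an unadjusted exact p of 0.0286 with a pseudocount of 1 and without library E, and so did that of RPS4Y1 to RPS4X without A.

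The exon length relation was not run on coding length. No paired analysis was possible because the columns carry no outgrowth numbers and the titles of the days share only 1 number. Depth limits the short RPS29 entry, which had 280 reads in all.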
